A study of Mus musculus with 4 samples.

Results

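Immunoglobulin gene segments are the germline pieces from which B cells build antibodies. They were examined here in RNA sequencing libraries of activated lung ILC2s, group 2 innate lymphoid cells, which carry no antigen receptor. All rows of the count table annotated as immunoglobulin variable (V), diversity (D), joining (J) or constant (C) genes were taken, which gave 202 of 22558 genes. Of these, 184 were V genes, 7 were J genes and 11 were C genes, and the table analysed here held 0 rows of D genes. The heavy chain locus Igh on chromosome 12 held 103 members, the kappa light chain locus Igk on chromosome 6 held 93 and the lambda light chain locus Igl on chromosome 16 held 6.

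There were 2 libraries from WT (C57BL/6) mice and 2 labelled ICAM-1 KO, from mice of the strain B6.129S4-Icam1 tm1Jcgr/J. Every library was a pool of 4 mice aged 6 weeks, given rmIL-33 intranasally 3 times at 0.5 µg, whose lungs were taken on day 4. The cells had been sorted as CD45+ ST2+ CD127+ and negative for a lineage mixture that included the B cell marker CD45R and CD5. No untreated library was analysed here, so all values describe challenged mice. Depth was 24796148 to 28782471 counts per library. Counts of Icam1 itself were 2579 and 2630 in WT and 2812 and 3453 under the ICAM-1 KO label. Since it was not lower there, every direction below rests on the label, and the libraries are called KO-labelled. The paper describes each sample as a pool of 4 mice, and the labels only number the replicates. With 2 per group the p-values measure only the spread between these pools. Both ILC2 genes and genes of other lymphocytes were read: Gata3, the factor that ILC2s depend on, had 12252 to 16261 counts per library, and Cd79a, a signalling chain of the B cell receptor, had 1254 to 2009.

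A B cell joins 1 V, 1 D and 1 J segment in its heavy chain gene, and 1 V and 1 J segment in a light chain gene, and the joined V region is spliced to a constant gene. Cells of 1 clone share the same V and J segments, so the shares of V genes in a sample describe which clones and cell types supply the transcripts. B-1a cells, innate-like B cells found in body cavities, are known for receptors to phosphatidylcholine, in which Ighv11-2 pairs with Igkv14-126 and Ighv12-3 pairs with Igkv4-91. The heavy chains of these receptors are known to use Ighj1.

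These 4 V genes carried much of the V counts of the heavy chain and kappa loci, so their sequences are shown. The lines give the last 120 bases of each germline transcript in GENCODE M21, ending at the join to D or J, and capitals mark bases that differ from the most similar other V gene of the annotation.
Ighv11-2: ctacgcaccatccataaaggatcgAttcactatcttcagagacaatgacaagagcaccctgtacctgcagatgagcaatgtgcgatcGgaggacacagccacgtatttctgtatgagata
Igkv14-126: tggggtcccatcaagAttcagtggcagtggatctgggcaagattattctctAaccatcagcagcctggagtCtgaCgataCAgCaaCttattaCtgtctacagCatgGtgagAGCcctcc
Ighv12-3: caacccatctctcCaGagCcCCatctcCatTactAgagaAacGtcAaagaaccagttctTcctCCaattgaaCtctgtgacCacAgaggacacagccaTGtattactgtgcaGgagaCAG
Igkv4-91: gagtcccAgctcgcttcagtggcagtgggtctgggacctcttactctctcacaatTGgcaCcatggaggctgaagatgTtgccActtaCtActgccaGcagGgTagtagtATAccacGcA

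In mm10, Ighv11-2 spans 114048241 to 114048812 of chromosome 12 (minus strand). It differs in 2 of these bases from Ighv11-1, to which it was 98.9% identical. The authors' counting split reads that fitted several genes, and it gave Ighv11-1 at most 9.63 counts in any library. Igkv14-126 lies on chromosome 6 from 67896172 to 67896642 on the plus strand and differs in 14 bases from Igkv14-111, at 91.6% identity. Ighv12-3, on chromosome 12 from 114366521 to 114366954 on the minus strand, differs in 23 bases from Ighv3-2, and Igkv4-91, on chromosome 6 from 68768555 to 68769103 on the minus strand, in 16 bases from Igkv4-79. Many V genes are harder to tell apart: 87 of the 184 had a relative of at least 95% identity and 18 had one of at least 98%. Counts of such genes are uncertain one by one, and sums over loci and families are less so.

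The immunoglobulin genes took a small share of the reads that differed widely between libraries. In the WT libraries they held 0.237% (95% Wilson interval 0.236 to 0.239%) and 0.598% (0.595 to 0.601%) of all counts. In the KO-labelled libraries they held 1.07% (1.07 to 1.08%) and 1.62% (1.61 to 1.62%). These intervals, and all others given for shares, cover counting error only. The mean was 4176 ± 2548 CPM (counts per 1000000 counts of the library; SD, n = 2) in WT and 13439 ± 3838 in the KO-labelled libraries, a 3.22-fold difference. The groups did not overlap, and the lower KO-labelled library stood 1.79-fold above the higher WT library. WT replicate 2 was itself 2.52-fold above WT replicate 1. These sums describe the libraries and were not tested. In bulk RNA, fewer cells that make immunoglobulin and less of its RNA in each cell cannot be told apart.

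All 3 loci were higher in the KO-labelled libraries. The heavy chain locus gave 1193 and 2743 CPM in WT and 5176 and 7394 CPM under the ICAM-1 KO label, a 3.19-fold difference of the means. The kappa locus gave 856 and 2984 CPM in WT and 4461 and 7657 CPM under the other label, 3.16-fold. The lambda locus gave 325 and 251 CPM in WT and 1087 and 1102 CPM, 3.80-fold. Lambda thus differed least within a group, by 1.01-fold between the KO-labelled libraries, and there the order of the WT libraries was the opposite of that for Igh and Igk. V and C genes moved alike within a locus: the ratio of the group means was 3.22 for heavy chain V genes and 3.18 for heavy chain C genes, 3.13 and 3.17 for kappa, and 3.86 and 3.76 for lambda.

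**Figure D1:**
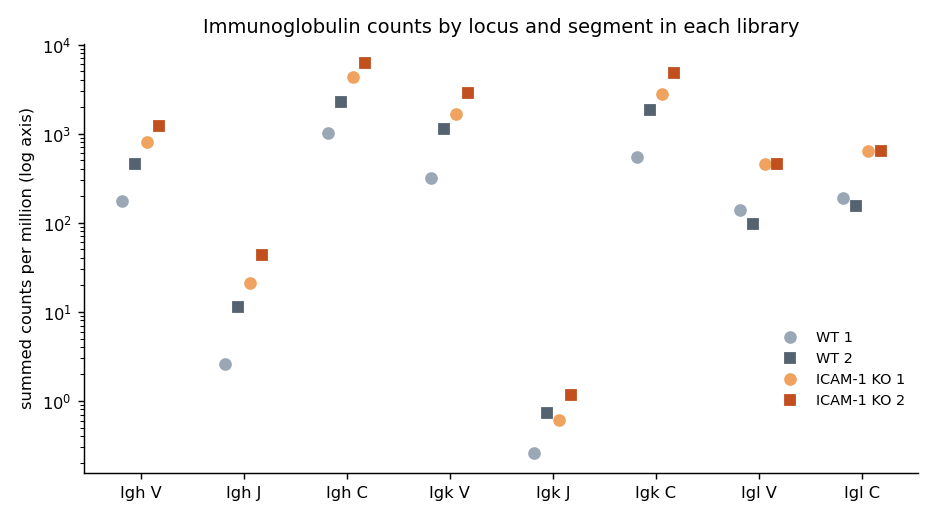
Summed CPM (log axis) of the V, J and C genes of each locus, with 1 point per library. Under the ICAM-1 KO label both points lie above both WT points in every set but the kappa J genes, and WT replicate 1 is the lowest library outside the lambda locus.

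Of the heavy chain constant genes, Ighm, which encodes the heavy chain of IgM, made up nearly all counts. Ighm lies on chromosome 12 from 113418558 to 113422730. It had 26486 and 61416 counts in WT against 106047 and 165718 in the KO-labelled libraries, which did not overlap. Its share of the heavy chain constant counts was 95.8% and 93.7% in WT and 98.3% and 98.6% under the other label. Ighm was higher by 1.70 on the log2 scale (SE 0.32, adjusted p = 0.0109 by the quasi-likelihood test of edgeR, adjusted by Benjamini-Hochberg over 11711 genes). The call was kept without each library in turn, and lost with no filter on low counts (adjusted p = 0.0805), a setting under which 13 of the 40 members called higher kept their call.

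Ighd, the IgD gene that naive follicular B cells transcribe together with Ighm, averaged 4.58 CPM per kb of exon over the 4 libraries, against 1779 for Ighm. Its counts were 210 and 261 in WT and 207 and 266 in the KO-labelled libraries, so the groups overlapped. The log2 difference was 0.07 (SE 0.28, adjusted p = 0.894 by the same edgeR test). The ratio of Ighm to Ighd counts was therefore 126 and 235 in WT and 512 and 623 under the ICAM-1 KO label.

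The class-switched genes were low and did not move as 1 group. Igha, the gene of IgA, the main antibody of mucosal surfaces, had 930 and 3816 counts in WT and 767 and 872 in the KO-labelled libraries. The groups did not overlap in CPM, with both WT libraries above, but Igha did not pass the test (log2 difference -1.45, SE 0.49, adjusted p = 0.0826 by edgeR). The size rested on WT replicate 2: without it the log2 difference was -0.15 (adjusted p = 0.655 by edgeR), and Igha was called lower without any 1 of the other libraries (adjusted p = 0.00121 to 0.0169 by edgeR). Igha held 3.36% and 5.82% of heavy chain constant counts in WT, against 0.711% and 0.519%.

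Of the IgG genes, Ighg3 had 26 and 21 counts in WT and 138 and 1281 in the KO-labelled libraries. It was called higher (log2 difference 4.95, SE 1.14, adjusted p = 0.0245 by edgeR), and the call was lost without either WT library (adjusted p = 0.108 without replicate 1 and 0.118 without replicate 2, edgeR). The KO-labelled libraries were far apart, so its size rested on replicate 2. Ighg2c stood out in 1 library alone, with 722 counts in ICAM-1 KO replicate 1 against 0 and 8 in WT and 0 in ICAM-1 KO replicate 2. It did not pass the test (log2 difference 6.54, SE 2.08, adjusted p = 0.0624 by edgeR), and without ICAM-1 KO replicate 1 its direction turned. Ighg1 had 0, 27, 12 and 0 counts and Ighg2b 0, 0, 21.3 and 17 in the order WT 1, WT 2, ICAM-1 KO 1 and ICAM-1 KO 2, and neither reached the level at which genes were tested. The 4 IgG genes together held 0.094% and 0.0854% of heavy chain constant counts in WT and 0.828% and 0.772% under the other label.

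**Figure D2:**
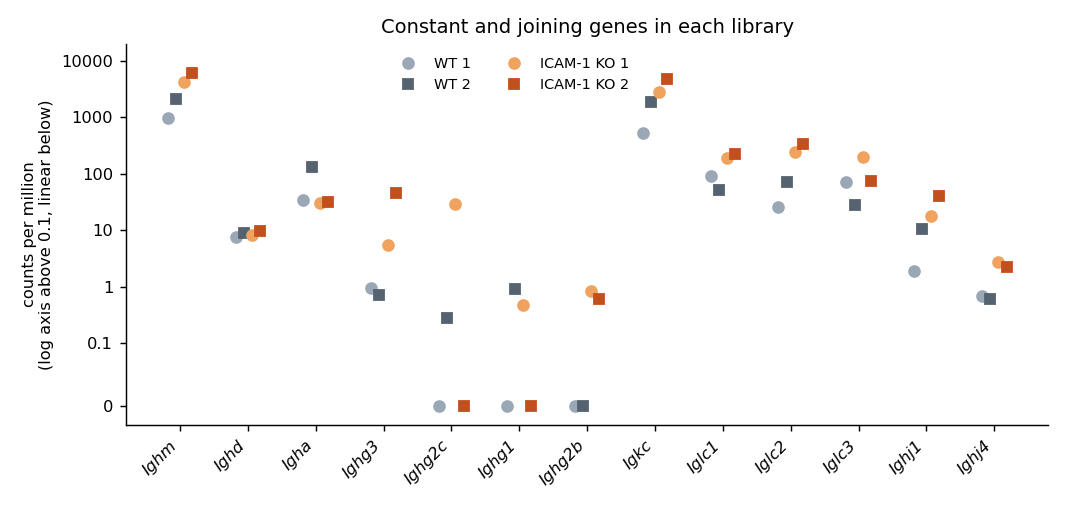
CPM of the constant genes and of 2 heavy chain J genes in each library, on a log axis above 0.1 and a linear axis below. Ighm, the light chain genes and Ighj1 are higher in both KO-labelled libraries than in both WT libraries, Ighd overlaps between the groups and Igha is highest in WT replicate 2.

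Igkc, the single constant gene of kappa light chains, lies on chromosome 6 from 70726435 to 70726966. It had 14764 and 53082 counts in WT and 69298 and 131221 in the KO-labelled libraries, which did not overlap. Its log2 difference of 1.63 (SE 0.47) missed the threshold narrowly, with an adjusted p of 0.0504 by edgeR, and 0.0499 with TMM factors in place of upper quartile factors. The WT libraries were 3.40-fold apart.

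Among the lambda constant genes, Iglc1 had 2469 and 1501 counts in WT and 4674 and 6222 under the ICAM-1 KO label. It was higher by 1.51 on the log2 scale (SE 0.22, adjusted p = 0.00357 by edgeR). Iglc2 had 706 and 2089 counts in WT and 6041 and 9384 under the other label, higher by 2.53 (SE 0.37, adjusted p = 0.00404 by edgeR). Iglc2 and Iglc3 were 94.9% identical, so reads may have been split between them. Iglc3 had 1929 and 814 counts in WT and 5049 and 2093 under the ICAM-1 KO label, a log2 difference of 1.46 that did not pass (SE 0.45, adjusted p = 0.0646 by edgeR). The groups did not overlap for any of these genes. Iglc1 and Iglc3 overlap an antisense transcript, 2010309G21Rik, and no source used here says if the counting was stranded. Igkc overlaps the noncoding Gm30211 on the same strand. Lambda constant genes held 25.7% and 7.66% of light chain constant counts in WT and 18.5% and 11.9% under the other label, so the groups overlapped in this share.

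The 3 lambda V genes followed the constant genes. Iglv1 had 3546 and 1791 counts in WT and 7407 and 6600 under the ICAM-1 KO label, and was higher by 1.45 on the log2 scale (SE 0.26, adjusted p = 0.0101 by edgeR). Iglv2 had 135 and 943 counts in WT against 3048 and 5740, higher by 3.09 (SE 0.55, adjusted p = 0.00945 by edgeR), and was not called by DESeq2 (adjusted p = 0.0562). Iglv3 had 70 and 75 counts in WT against 732 and 220, higher by 2.79 (SE 0.64, adjusted p = 0.0230 by edgeR), a call lost without either WT library. In WT replicate 1 nearly all lambda V counts, 94.5%, were Iglv1, and in WT replicate 2 Iglv2 held 33.6%. These genes were 97.0% identical.

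J segments are short, so few reads can be placed on them. The 3 heavy chain J genes with a row are shown, since the results turn on which was used. Capitals mark the only match to TGGGG, searched on the coding strand, which covers the codon of the conserved tryptophan in the heavy chain J region. All 3 rows hold it.
Ighj1: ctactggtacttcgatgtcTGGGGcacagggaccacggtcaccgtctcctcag
Ighj2: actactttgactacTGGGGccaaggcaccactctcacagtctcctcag
Ighj4: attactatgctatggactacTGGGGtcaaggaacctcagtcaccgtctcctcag

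Ighj1, on chromosome 12 from 113429781 to 113429833, had 52 and 303 counts in WT and 451 and 1138 in the KO-labelled libraries. The groups did not overlap. It was higher by 2.22 on the log2 scale (SE 0.57, adjusted p = 0.0357 by edgeR), and the log2 difference ran from 1.47 to 3.95 with 1 library left out. It was not called without WT replicate 1 (adjusted p = 0.127), by DESeq2 (0.199), with filterByExpr (0.0566), by edgeR's older quasi-likelihood method (0.0756) or with no filter (0.144). Ighj4 had 19 and 18 counts in WT and 68 and 63 under the other label and was too low to be tested. Ighj2 had at most 3 counts in any library. Ighj1 thus held 73.2% of the Ighj counts in WT replicate 1 (95% Wilson interval 61.9 to 82.1%) and 93.8% in WT replicate 2, and 86.4% and 94.6% under the ICAM-1 KO label. A J gene with no row was not analysed here, so these are shares of 3 genes. Igkj2 had 4 to 21 counts and Igkj4 0 to 6, too few to compare, and all 4 kappa J rows lie within Gm30211.

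In all 4 libraries 1 heavy chain V gene led, Ighv11-2. It had 1405 and 4694 counts in WT and 8428 and 20784 in the KO-labelled libraries. It held 29.3% (95% Wilson interval 28.0 to 30.6%) and 35.9% (35.1 to 36.7%) of the heavy chain V counts in WT, and 42.3% (41.6 to 43.0%) and 61.7% (61.2 to 62.3%) under the other label. Ighv12-3 had 182 and 453 counts in WT and 1520 and 2844 under the ICAM-1 KO label, where it ranked second in both libraries.

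Among kappa V genes, Igkv14-126 led in all 4 libraries. Its counts were 2929 and 10237 in WT and 18160 and 43994 in the KO-labelled libraries. Its share of the kappa V counts was 34.3% (95% Wilson interval 33.3 to 35.3%) and 31.2% (30.7 to 31.7%) in WT and 44.0% (43.5 to 44.4%) and 55.7% (55.3 to 56.0%) under the other label. Igkv4-91 had 314 and 734 counts in WT and 4631 and 10316 under the ICAM-1 KO label, where it too was second in both libraries. For each of these 4 genes the groups did not overlap.

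The differences were larger for these genes than for the loci that hold them. By the same edgeR test Ighv11-2 was higher by 2.32 on the log2 scale (SE 0.49, adjusted p = 0.0177) and Igkv14-126 by 2.30 (SE 0.51, adjusted p = 0.0200). Ighv12-3 was higher by 2.84 (SE 0.36, adjusted p = 0.00215) and Igkv4-91 by 3.89 (SE 0.40, adjusted p = 0.000877). The calls of Ighv11-2 and Igkv14-126 were lost without WT replicate 1, each with an adjusted p of 0.0652 by edgeR, and by DESeq2 (adjusted p = 0.0779 and 0.0761). Those of Ighv12-3 and Igkv4-91 were kept without each library in turn. As levels per length, Igkv14-126 averaged 1954 CPM per kb over the 4 libraries and Ighv11-2 711 CPM per kb, against 4680 for Igkc and 1779 for Ighm.

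**Figure D3:**
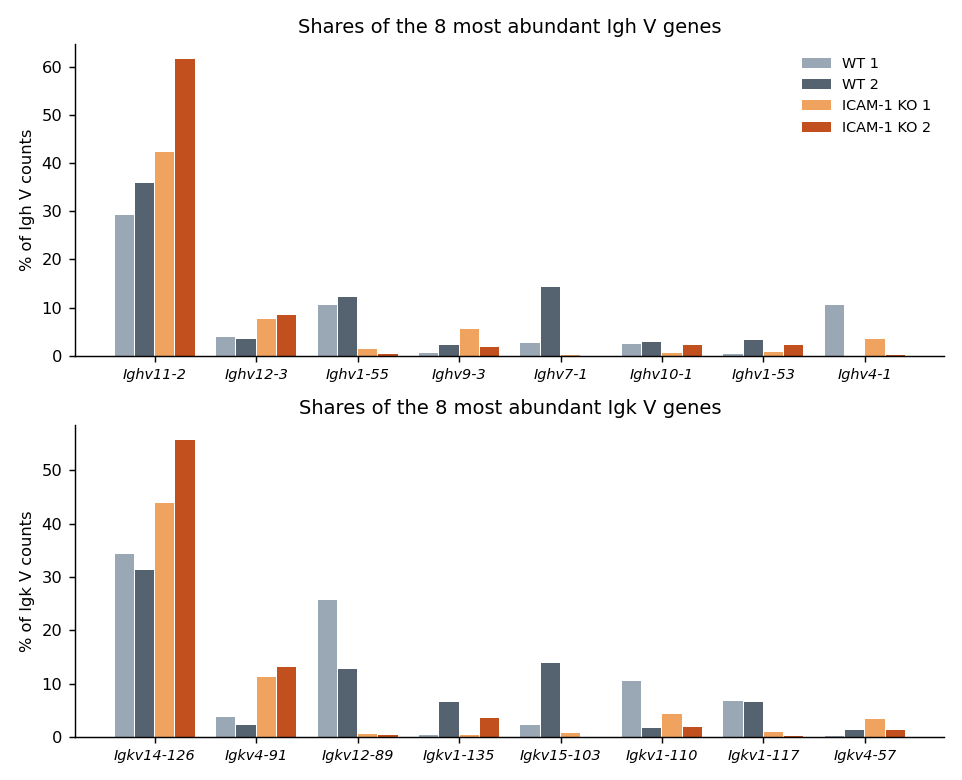
Share of the V counts of a locus, in percent, taken by each of its 8 most abundant V genes, with 1 bar per library. Ighv11-2 and Igkv14-126 are the tallest in every library, and Igkv12-89 is tall in both WT libraries only.

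The heavy and kappa members of the first pair kept a fixed proportion. The ratio of Igkv14-126 to Ighv11-2 counts was 2.09 and 2.18 in WT and 2.15 and 2.12 in the KO-labelled libraries. Its largest and smallest values were thus 1.05-fold apart, while the level of Ighv11-2 varied from 51.6 to 757 CPM. The second pair was less even: the ratio of Igkv4-91 to Ighv12-3 was 1.73 and 1.62 in WT and 3.05 and 3.63 under the other label, 2.24-fold between the extremes. These ratios were looked at because of the known pairing and are descriptions of 4 libraries with no test.

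**Figure D4:**
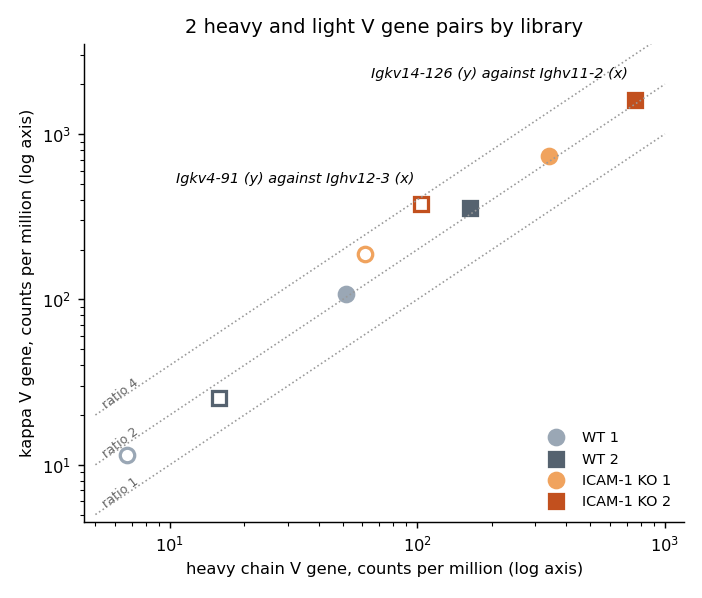
CPM of the kappa V gene against the heavy chain V gene it is known to pair with (log axes), with filled points for Igkv14-126 and Ighv11-2, open points for Igkv4-91 and Ighv12-3, and dotted lines at ratios of 1, 2 and 4. The filled points lie along a ratio of 2.09 to 2.18, and the open points move from 1.62 to 3.63.

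Together Ighv11-2 and Ighv12-3 held 33.1% and 39.4% of heavy chain V counts in WT and 49.9% and 70.2% under the ICAM-1 KO label. Igkv14-126 and Igkv4-91 held 37.9% and 33.5% of kappa V counts in WT and 55.2% and 68.7% under the other label. The remaining heavy chain V genes summed to 118 and 276 CPM in WT and 402 and 366 CPM in the KO-labelled libraries. The remaining kappa V genes summed to 195 and 757 CPM in WT and 747 and 899 CPM under the other label. So without these 4 genes the heavy chain groups were still apart, and the kappa groups overlapped, since WT replicate 2 stood above ICAM-1 KO replicate 1. The effective number of V genes was taken as the inverse of the summed squared shares (inverse Simpson). It was 7.59 and 5.82 for heavy chain in WT and 5.13 and 2.55 under the ICAM-1 KO label. For kappa it was 4.89 and 6.82 in WT and 4.69 and 3.01 under the other label. A lower value means that counts sat in fewer V genes.

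Over all members, 191 of 202 had over 3 counts in at least 1 library and 79 had this in all 4. Of the members, 41 passed this level only in KO-labelled libraries and 5 only in WT. By library, 116 and 123 members passed it in WT and 172 and 151 in the KO-labelled libraries. Over all 22558 genes, 17805 and 17993 passed it in WT and 18790 and 18862 in the KO-labelled libraries. A fixed level is passed more often where more reads were drawn, and the KO-labelled libraries had 265924 and 443531 immunoglobulin counts against 64690 and 172038 in WT. Both KO-labelled libraries lay above both WT libraries in CPM for 96 of the 191 members, 50.3%, and below for 12, 6.28%. Over the 21350 genes with over 3 counts in any library, the groups were apart in this way for 31.1% and 19.3%.

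For the test across all genes, 91 members passed the filter on low counts and 111 did not, so the following counts are not over all members. edgeR called 40 of the 91 higher in the KO-labelled libraries and 5 lower, with 2-fold as the smallest change and 0.05 as the limit of the adjusted p, and 46 were not called. Of all genes tested, 4.94% were called higher and 0.538% lower. The filter favours genes that are high in at least 1 group. Only 53 of the 91 members would have passed on the WT mean alone, and of these 15 were called higher and 5 lower. On the KO-labelled mean alone 86 would have passed, and of these 3 were called lower. Either choice favours calls toward the group it was made on. With no filter, 13 of 199 members were called higher and 1 lower, against 1.23% and 0.176% of all genes. WT replicate 1 had the fewest immunoglobulin counts, and without it 24 members were called higher and 9 lower. Over all genes, fewer were called higher and fewer lower without WT replicate 1 than with every library. The 40 higher members were 15 of the heavy chain, 20 of the kappa and 5 of the lambda locus, and the 5 lower members were all V genes.

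**Figure D5:**
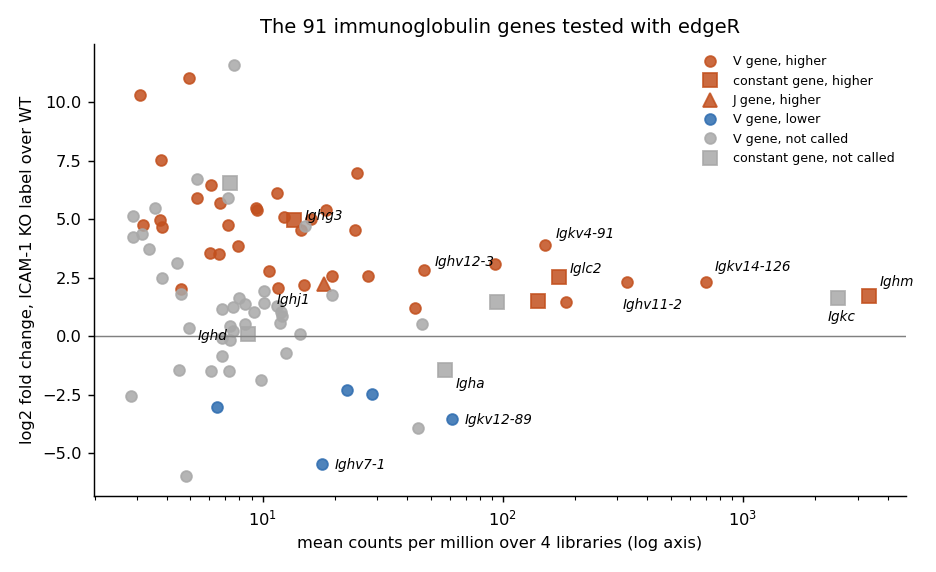
Log2 fold change against mean CPM (log axis) for the 91 members tested with edgeR, coloured by call and shaped by segment. Genes over 100 CPM lie between 1.45 and 3.89, the 5 lower V genes lie at -2.29 or below, and the changes of genes under 10 CPM spread widely.

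The largest increases were in V genes of low level, where few transcripts were read in WT. None of the V genes named here would have passed the filter on the WT mean alone. They were tested only because they were high in the KO-labelled libraries. Ighv1-78 had 0 counts in both WT libraries and 264 and 247 in those labelled ICAM-1 KO, at least 91.7-fold higher against a floor of 3 counts per library. Ighv1-36 had 2 and 0 counts against 103 and 299, at least 70.2-fold higher. Igkv6-20, whose nearest relative was 98.7% identical, had 0 and 0 counts against 272 and 39, at least 57.8-fold higher. All these groups were apart, but the KO-labelled libraries often differed strongly from each other. Igkv9-124 had 0 and 21.4 counts in WT against 484 and 2146, Igkv5-43 had 7 and 0 against 556 and 44.1, and Ighv5-9-1 had 0 and 18.3 against 154 and 1073. The calls of Igkv6-20, Igkv5-43 and Ighv5-9-1 were lost without either WT library, those of Igkv6-20 and Igkv5-43 also with limma and filterByExpr, and those of Igkv5-43 and Ighv5-9-1 by DESeq2. Of the 40 members called higher, 13 were over 4-fold apart between the KO-labelled libraries.

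The 5 V genes called lower showed the opposite pattern in both WT libraries. Igkv12-89, on chromosome 6 from 68834846 to 68835307, had 2198 and 4193 counts in WT and 224 and 300.2 in the KO-labelled libraries. It fell by 3.54 on the log2 scale (SE 0.30, adjusted p = 0.00045 by edgeR). It held 25.7% and 12.8% of kappa V counts in WT and 0.542% and 0.380% under the other label. Ighv1-55 had 507 and 1601 counts in WT against 263 and 144, and fell by 2.29 (SE 0.52, adjusted p = 0.0226 by edgeR). Igkv1-117 had 570 and 2164 counts against 340 and 118, and fell by 2.49 (SE 0.62, adjusted p = 0.0317 by edgeR). It was 97.5% identical to Igkv1-110, which was called higher, so its own count is uncertain.

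Of the other lower V genes, Ighv5-17 had 496 and 136 counts in WT and 20.3 and 54.5 in the KO-labelled libraries, and Ighv7-1 had 128 and 1853 against 40 and 2. Neither would have passed the filter on low counts on the KO-labelled mean alone. Ighv7-1 made up 14.2% of the heavy chain V counts of WT replicate 2 and 2.67% of those of WT replicate 1. The calls of Ighv7-1, Ighv1-55 and Igkv1-117 were lost without WT replicate 2, and that of Ighv5-17 without WT replicate 1. With filterByExpr Ighv7-1, Ighv5-17 and Igkv1-117 were not called, and by DESeq2 Igkv1-117 was not (adjusted p = 0.103). Igkv12-89 was called in every fit with a library left out.

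Several abundant V genes differed widely between libraries of 1 label and were not called. Igkv15-103 had 4568 counts in WT replicate 2, 13.9% of its kappa V counts, and 190, 272 and 17 in WT replicate 1, ICAM-1 KO replicate 1 and ICAM-1 KO replicate 2. Its log2 difference was -3.94 (SE 1.25, adjusted p = 0.0675 by edgeR). Igkv1-135 had 2120 counts in WT replicate 2 and 2812 in ICAM-1 KO replicate 2 against 33 and 175 in the others. Ighv4-1 had 507 counts in WT replicate 1 and 686 in ICAM-1 KO replicate 1 against 0.00139 and 27.8 in the others. Ighv10-1 had 114 and 370 counts in WT against 105 and 739, and Ighv1-53 had 19.5 and 423 against 148 and 717. The pools shared their leading V genes and differed in many of those that followed.

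The remaining abundant V genes were called higher. Igkv1-110 had 888 and 546 counts in WT and 1731 and 1414 in the KO-labelled libraries, a log2 difference of 1.20 (SE 0.24, adjusted p = 0.0138 by edgeR) that was not called without WT replicate 2 (adjusted p = 0.0565) and fell just under 2-fold without ICAM-1 KO replicate 1. The nearest relative of Igkv1-110 was Igkv1-117, called lower, at 97.5% identity, so reads may have been split between them. Their family Igkv1 overlapped between the groups, with 54.9 and 168 CPM in WT against 91.7 and 159 CPM. Ighv9-3 had 27.1 and 278 counts in WT against 1104 and 628, and Igkv4-57 had 12.7 and 422 against 1374 and 1079. The WT libraries were far apart for both of these genes and the groups did not overlap. By DESeq2 neither was called (adjusted p = 0.194 for Ighv9-3 and 0.336 for Igkv4-57), nor by the older edgeR method (0.0704 and 0.116), and Ighv9-3 was not called without WT replicate 1 (0.0557).

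Summed by V family, a set of V genes of similar sequence, counts depend less on how reads were split. Of 15 heavy chain families, 9 were higher in both KO-labelled libraries, 1 was lower and 5 overlapped. Of 18 kappa families, 9 were higher, 2 lower and 7 overlapping. Of the 21350 single genes with over 3 counts in any library, 31.1% were higher and 19.3% lower in this way. Some families were near 0, such as Ighv13 with 5, 5, 5 and 12 counts and Igkv20 with 1, 7, 0 and 1 in the order WT 1, WT 2, ICAM-1 KO 1 and ICAM-1 KO 2. The largest heavy chain family, Ighv1 with 47 rows, had 1350 and 3558 counts in WT and 3990 and 4701 under the ICAM-1 KO label, and its share of heavy chain V counts was 28.2% and 27.2% against 20.0% and 14.0%. Igkv4, with 24 rows, had 540 and 2872 counts in WT against 9676 and 15812, of which Igkv4-91 made up 314 and 734 in WT and 4631 and 10316 under the other label. Igkv12 had 2659 and 4803 counts in WT against 1179 and 1702, and Ighv7 had 141 and 2135 against 53 and 12.

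Each large locus was split at the median distance of its V genes from the J genes, and higher calls came from both parts. Of all genes tested, 4.94% were called higher and 0.538% lower. Of the 47 heavy chain V genes nearer to the J genes, 17 were tested, with 7 higher and 2 lower, and of the 46 farther ones 13 were tested, with 5 higher and 1 lower. Of the 44 kappa V genes nearer to the J genes, 28 were tested, with 11 higher and 0 lower. Of the 44 farther ones 20 were tested, with 9 higher and 2 lower.

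Genes of B cells and plasma cells, which make immunoglobulin, were measured in the same libraries. Of 15 B cell genes, 12 were tested and 5 were called higher, against 4.94% of all genes tested, with a median log2 difference of 0.72 against 0.01 over all genes tested. With 1 library left out, 2 to 5 were called higher, with 2 without WT replicate 2 and 3 without ICAM-1 KO replicate 1, and limma called 3 and the fit with no filter 1. Their summed level was 340 and 293 CPM in WT and 570 and 495 CPM under the ICAM-1 KO label. Ms4a1, which encodes CD20, had 1056 and 1314 counts in WT against 2546 and 1980, and was higher by 1.01 on the log2 scale (SE 0.17, adjusted p = 0.00791 by edgeR). Cd79a had 1357 and 1254 counts against 2009 and 1853, a log2 difference of 0.63 under the 2-fold limit. Of the defining markers only Cr2, a complement receptor, was at 0 in a library, with 0 and 19 counts in WT and 56 and 5 under the ICAM-1 KO label.

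Of 12 plasma cell genes, 11 were tested and 5 were called higher, beside the same 4.94% of all genes, with a median log2 difference of 1.23. The count was 2 without WT replicate 1, 8 without WT replicate 2, 3 by DESeq2, 3 by the older quasi-likelihood method of edgeR and 0 with no filter. Their summed level was 610 and 1043 CPM in WT and 1361 and 1564 CPM under the ICAM-1 KO label. Mzb1, an endoplasmic reticulum protein that helps IgM assemble, had 389 and 1347 counts in WT and 2368 and 3149 under the other label, higher by 1.74 (SE 0.39, adjusted p = 0.0207 by edgeR). Jchain, which links IgM and IgA into polymers, had 2245 and 7377 counts in WT against 7668 and 13875, a log2 difference of 1.23 that did not pass (SE 0.43, adjusted p = 0.0877 by edgeR). Jchain, Mzb1 and Derl3 were lower in WT replicate 1 than in WT replicate 2, as the heavy and kappa loci were, whereas the summed B cell genes were lower in WT replicate 2. The ratio of Ighm to Jchain counts was 11.8 and 8.33 in WT and 13.8 and 11.9 under the ICAM-1 KO label, and that of Ighm to Cd79a 19.5 and 49.0 against 52.8 and 89.4. Of the 11 tested, 1 had a negative log2 difference, Irf4, with 2937 and 5239 counts in WT against 2384 and 2771. Its log2 difference of -0.59 did not pass (SE 0.21, adjusted p = 0.0923 by edgeR). Xbp1, Txndc5, Irf4 and Prdm1 in this list are also transcribed by other lymphocytes. The part of B cells and plasma cells in the immunoglobulin differences was not tested.

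Genes of other lymphocytes were read as well. Of 13 ILC2 genes all were tested and 1 was called lower by edgeR, beside 0.538% of all genes tested. With no limit on size, 2 were higher and 4 lower at an adjusted p under 0.05. The 1 called lower was Il13, a type 2 cytokine, with 955 and 1110 counts in WT and 318 and 405 under the ICAM-1 KO label. Of 9 T cell genes, 3 were called higher, Cd3d, Cd4 and Trac, beside 4.94% of all genes tested. The median log2 difference of the 9 was 0.48, against 0.01 over all genes tested. The log2 difference of Cd3e was 0.17, that of Cd8a -0.04 and that of Cd3g -0.33. Of 8 genes listed for V(D)J recombination, class switching and B cell precursors, 4 had a row. Of these only Ung, a DNA repair enzyme, was tested and was not called. Dntt, the enzyme that adds bases at V(D)J joins, had 8 and 12 counts in WT and 3 and 0 under the other label, and Rag2, part of the recombinase, had 0 counts in 3 libraries and 13.3 in ICAM-1 KO replicate 1.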

How the data were processed

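The authors amplified cDNA of the sorted cells with a low-input SMARTer kit, mapped the reads by STAR against mm10 and GENCODE M20, and deposited expected counts per gene, estimated by the E/M method of Partek, in which reads that fit several genes are split. How reads across V(D)J joins were counted is not stated. The authors also deposited a signal, upper quartile normalized counts, used here for the filter on low counts. The STAR version in the paper and in the submitters' processing notes (3.5.3) differ.

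Members were the rows typed as IG V, D, J or C gene. Members and lists were chosen with earlier results of these data known. Counts were rounded and tested over 11711 genes (mean normalized count of at least 1 and sum of at least 10) with edgeR 4.0.16 in R 4.3.3 by glmQLFit and glmQLFTest with upper quartile factors and no covariate, with Benjamini-Hochberg adjustment and calls at an adjusted p under 0.05 and at least 2-fold. DESeq2 1.42.0, limma 3.58.1 on log2 values with a pseudocount of 1, and other settings were alternatives. The test was also run on simulated counts whose spread followed the trend over all genes, with no 2-fold limit. V genes that differ widely between pools of 1 label were not simulated. CPM are counts per 1000000 of the library total, and a floor of 3 counts was used. V sequences were compared with BLAST 2.17.0, in GENCODE M21, whose coordinates matched all 202 members. Depth was 24796148 to 28782471 counts per library.

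Genes named were all C and J genes with over 3 counts in any library, the 8 most abundant V genes of Igh and of Igk, the lambda V genes, up to 6 called V genes per direction with the largest change and groups apart, and the 4 V genes of phosphatidylcholine receptors. Ighv11-1, Ighj2, Igkv14-111, Igkv4-77, Igkv11-106 and Rag2 were named after their values were seen. Groups came from the labels. Same-numbered replicates share a number only, since they are different animals, and the correlation of their deviations from the group means was -0.07 over the genes tested.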

Additional observations from a re-analysis of the deposited data

Results flagged for a closer look

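Rows annotated as immunoglobulin V pseudogenes are outside the members, and 13 of them are in the table. They carried signal above the WT level: the mean of the KO-labelled libraries was 5.75 ± 0.0935 CPM (SD, n = 2; 5.82 and 5.69 CPM), against 1.41 and 3.80 CPM in WT. As a share of the member counts they were not higher, with 0.0593% and 0.0635% in WT and 0.0543% and 0.0352% in the KO-labelled libraries. Single rows made up much of some libraries: Igkv4-77 had 117 of the 156 counts of ICAM-1 KO replicate 2, and Igkv11-106 had 80 of the 109 counts of WT replicate 2. Whether reads of similar functional V genes were split onto these rows was not tested. With 2 libraries per group, no sample could be judged against the others of its group.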

How the results depend on the processing

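The numbers of members called higher or lower moved by over 1.5 times from 40 and 5 with no filter on low counts (13 and 1), with at least 10 counts in every library (24 higher), with filterByExpr (2 lower) and, in an alternative added after seeing the data, among members without a relative of at least 95% identity (23 higher). Without 1 library at a time, 24 to 51 were called higher and 2 to 13 lower, with 24 and 9 without WT replicate 1, 28 and 2 without WT replicate 2, 45 and 13 without ICAM-1 KO replicate 1 and 51 and 11 without ICAM-1 KO replicate 2. Over all genes, fewer were called higher without either WT library and without ICAM-1 KO replicate 2, and more without ICAM-1 KO replicate 1. Lower calls over all genes were fewer without either WT library and more without either KO-labelled library. So without ICAM-1 KO replicate 2 the higher calls rose among members and fell over all genes. The fit reported above called 578 and 63 of 11711 genes. A fit with the replicate block called 53 members higher and 9 lower, and 601 and 67 of all genes. The shared numbers do not pair the samples. DESeq2 called 27 and 4 members, and 611 and 72 of all genes. With at least 10 counts in every library, 598 of 13892 genes were called higher, and with filterByExpr 65 of 16404 were lower. The 5 members called higher under all 8 alternatives that keep every library and have no block were Ighv12-3, Igkv4-91, Iglc1, Iglc2 and Igkv14-111. The locus ratios kept their direction, from 1.20 to 2.40 (log2) for Igh, 1.02 to 2.82 for Igk and 1.75 to 2.13 for Igl with a library left out, and moved by over 1 SD without WT replicate 2 for Igh and Igk (2.40 and 2.82) and without WT replicate 1 for Igl (2.13). Of the genes named, direction turned for 6 that were not called. Over the fits without 1 library the log2 difference ran from -0.066 to 0.21 for Ighd (-0.048 without WT replicate 1), -5.04 to 11.54 for Ighg2c, -0.45 to 4.52 for Ighv1-53, -1.08 to 1.90 for Ighv10-1, -3.17 to 11.54 for Ighv4-1 (-0.44 without WT replicate 2) and -2.48 to 5.49 for Igkv1-135 (-0.45 without WT replicate 1). The lowest values were without ICAM-1 KO replicate 2, and for Ighg2c and Ighv4-1 without ICAM-1 KO replicate 1. Fits without 1 library leave a group with 1 sample, which is assumed to vary like the other group. The cause of these changes was not tested.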
